A study of Mus musculus with 6 samples.

Results

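The splicing factors described here are the 71 protein-coding genes of the deposited expression table whose symbols begin with Srsf, Hnrnp, Snrp, Sf3a, Sf3b, Prpf, Ptbp, Mbnl, Celf or Rbfox and match those family names, out of 13105 genes listed. By role they were 10 SR proteins, 18 heterogeneous nuclear ribonucleoproteins (hnRNPs), 12 Sm and other small nuclear ribonucleoprotein (snRNP) proteins, 8 subunits of the SF3 complex, 13 PRP factors and 10 tissue-regulated splicing regulators. The samples were 3 denervated biceps muscles and the 3 contralateral control biceps of the same CD-1 mice. In each mouse the C5-T1 part of one brachial plexus had been excised on postnatal day 5, and both whole biceps were taken on postnatal day 26, after 3 weeks. The design text presents the pair as arrested against ongoing postnatal muscle growth. The control muscle belongs to an operated animal, and no muscle from an unoperated mouse was analysed here.

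Splicing removes introns from pre-mRNA in the spliceosome, which is assembled on each intron from small nuclear RNAs in a ring of Sm proteins, the SF3 complex that binds the branch point, and PRP factors that join and remodel the particles. SR proteins and hnRNPs bind exons and introns and favour or hinder the use of nearby splice sites. In skeletal muscle the MBNL, CELF and RBFOX proteins set the switch between fetal and adult exons, and loss of MBNL activity together with a gain of CELF1 is the known splicing defect of myotonic dystrophy.

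Abundances are TPM, a measure of transcripts per unit length in which a whole library has a fixed total, taken back from the deposited values, which were read as log2(TPM + 1). The files hold no read counts, so the depth behind a value is unknown and no counting interval can be given. The listed genes summed to 772550 to 803373 TPM in denervated libraries and to 688043 to 703803 TPM in control libraries. Most genes stood higher in denervated muscle, with a median log2 fold change of 0.71 over 12268 tested genes, which median-of-ratios scaling brought to 0.01. Each fold change is therefore given as deposited and also after scaling (relative to the typical gene). The words rose and fell are kept for genes that limma called in 1 direction on both scales at an adjusted p under 0.05. All 1922 genes called higher after scaling were also called higher as deposited, and all 552 called lower as deposited were also lower after scaling. Rose therefore equals the scaled call and fell the deposited call, and the other scale adds no support to either. In whole muscle, fewer cells of a type and less RNA per cell cannot be told apart.

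All 71 splicing factors were tested. On the deposited scale 65 were called higher (91.5%, against 69.9% of all tested genes) and 1 was called lower (1.41%, against 4.50%). Their median log2 fold change was 0.95, against 0.71 over all tested genes, and the range between quartiles was 0.33, against 0.62. After scaling 13 were called higher (18.3%, against 15.7%) and 6 lower (8.45%, against 18.6%), with a median of 0.12, against 0.01. With this scaling the share of members called higher was near that of all genes. Other scalings gave other shares. Upper-quartile scaling called 25.4% of the members higher, against 18.9% of all genes, quantile normalization 28.2%, against 17.7%, and an equal total of nuclear genes 77.5%, against 46.6%. On both scales 13 rose (18.3%, against 15.7%), namely Ptbp2, Celf2, Hnrnpr, Sf3b3, Prpf19, Prpf38b, Sf3a3, Hnrnpab, Sf3b2, Rbfox2, Hnrnpu, Celf1 and Hnrnpc. The gene that fell on both scales (1.41%, against 4.50%) was the one labelled Snrpn. Mbnl1, Mbnl2, Hnrnpa2b1, Snrpb and Snrpa1 were called lower after scaling alone. Sf3a1 and Snrpd3 were called on neither scale.

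Over all tested genes fewer calls were made after scaling whenever a library or a mouse was left out. Fewer members were called higher too, except without control replicate 2. That fit kept 13 members higher and gave 9 lower, against 6 with all libraries. Without denervated replicate 1, 2 or 3 the count of members called higher after scaling was 5 each time (7.04%), against 10.9%, 11.7% and 11.7% of all tested genes in the same fits. Without control replicate 1, 2 or 3 it was 6, 13 and 8 (8.45%, 18.3% and 11.3%), against 13.0%, 14.9% and 12.4%. Without both libraries of mouse 1, and likewise without those of mouse 3, it was 1 (1.41%), against 7.65% and 8.19%, and without those of mouse 2 it was 6 (8.45%), against 11.6%. Celf2 kept its call in each of these fits. Over the 9 fits that left out a library or a mouse, the largest limma adjusted p after scaling of the other 12 ran from 0.0903 for Ptbp2 to 0.241 for Sf3b2. On the deposited scale the count stayed between 60 and 66.

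The libraries of the groups did not overlap for most members. As deposited, all 3 denervated values lay above all 3 control values for 67 of 71 (94.4%, against 71.4% of all tested genes) and below them for 1 (1.41%, against 4.96%). Mbnl1, Snrpa1 and Sf3a1 overlapped. After scaling the denervated values lay above for 22 (31%, against 24.3%), below for 7 (9.86%, against 24.4%), and overlapped for 42. The summed level of the 71 was 2797, 2156 and 2164 TPM in denervated replicates 1, 2 and 3, against 1244, 1345 and 1171 TPM in control replicates 1, 2 and 3. After scaling the sums were 1714 ± 30.5 and 1701 ± 19.1 scaled TPM in denervated and control muscle (SD, n = 3 each), so the summed difference was within the spread of the libraries once the typical gene was set equal.

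**Figure D1:**
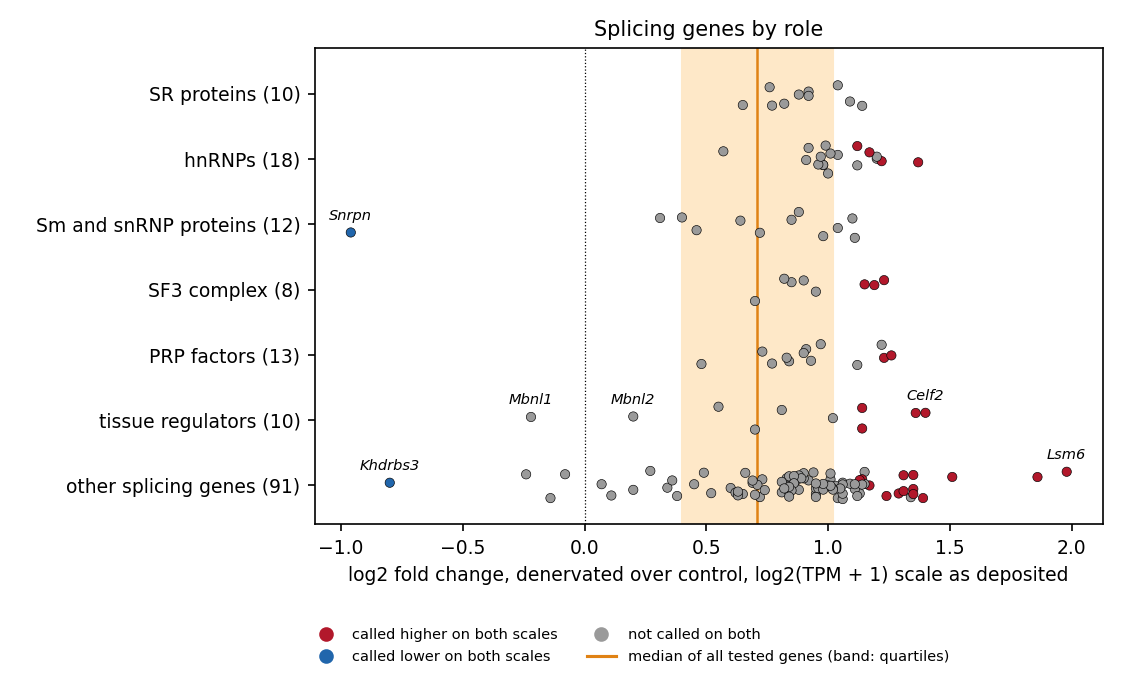
Log2 fold change, denervated over control, of each splicing factor by role and of 91 other splicing genes, on the deposited scale, with 1 point per gene. Red points rose and blue points fell on both scales, the line at 0.71 is the median of all tested genes and the band spans their quartiles. Most points lie at or right of the line, with the gene labelled Snrpn, Mbnl1 and Mbnl2 far to its left.

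RefSeq windows matched by symbol to 3 members are shown because these members mark the extremes of the comparison. They are the row labelled Snrpn, which fell, and the member with the largest scaled difference among those not called as deposited. The other is the member whose rise held in every leave-out fit. Each window spans 250 bases before to 50 bases after a transcription start on GRCm38.p6. It is on the strand of the gene, with CG dinucleotides in capitals. Where RefSeq gives several starts (4 for Snrpn, 2 for Mbnl1 and 5 for Celf2) the window with the most CG was taken. The windows are chr7:60005150-60005449 (minus strand, 7 CG) for Snrpn, chr3:60500929-60501228 (plus strand, 41 CG) for Mbnl1 and chr2:6871986-6872285 (minus strand, 48 CG) for Celf2. GENCODE M21 gives the identifier of the row labelled Snrpn to Gm38393, at 59974149 to 60005064. The Snrpn window lies outside that locus, so it may not be the upstream sequence of the row that fell.
Snrpn: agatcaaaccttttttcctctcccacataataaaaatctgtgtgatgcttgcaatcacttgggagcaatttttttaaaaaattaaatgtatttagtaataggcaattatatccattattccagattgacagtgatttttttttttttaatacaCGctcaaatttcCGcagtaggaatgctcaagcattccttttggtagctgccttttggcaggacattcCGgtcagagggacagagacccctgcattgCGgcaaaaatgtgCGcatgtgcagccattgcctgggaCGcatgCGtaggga
Mbnl1: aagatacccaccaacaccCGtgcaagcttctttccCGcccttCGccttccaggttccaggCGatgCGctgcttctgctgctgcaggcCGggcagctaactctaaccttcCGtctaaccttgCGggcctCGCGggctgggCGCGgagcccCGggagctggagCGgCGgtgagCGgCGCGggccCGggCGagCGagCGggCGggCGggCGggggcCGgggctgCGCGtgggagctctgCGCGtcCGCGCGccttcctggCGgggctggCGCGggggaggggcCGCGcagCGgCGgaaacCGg
Celf2: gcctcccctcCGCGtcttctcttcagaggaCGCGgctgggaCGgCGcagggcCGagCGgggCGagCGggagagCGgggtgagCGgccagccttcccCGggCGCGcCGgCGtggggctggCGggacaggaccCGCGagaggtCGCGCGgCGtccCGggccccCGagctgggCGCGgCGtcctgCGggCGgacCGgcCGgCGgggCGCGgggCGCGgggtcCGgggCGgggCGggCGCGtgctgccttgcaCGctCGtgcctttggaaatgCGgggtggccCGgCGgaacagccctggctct
The Mbnl1 and Celf2 windows, of genes with scaled log2 fold changes of -1.10 and 0.55, are dense in CG, and the Snrpn window is poor in it. Taking the window with the most CG favours dense windows, and which starts are used in these muscles was not measured. Of the members, 62 matched a window, and 59 of these (95.2%) held at least 10 CG, against 85.9% of 8474 tested protein-coding genes with a window. The medians were 25.5 and 22 CG per window. Under that number stood Rbfox1, Snrpa1 and Snrpn, with 7 CG each. The letters describe these windows and carry no information on methylation.

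The SR proteins, which bind exonic enhancers through RNA recognition motifs and recruit the splicing machinery through a serine-arginine tail, had no member called after median-of-ratios scaling. All 10 were called higher as deposited (100%, against 69.9% of all tested genes), with log2 fold changes of 0.65 for Srsf7 to 1.14 for Srsf6. Scaled values ran from -0.19 for Srsf7 to 0.31 for Srsf6. Srsf6 was called higher after scaling without control replicate 2 (limma adjusted p = 0.0364), with upper-quartile scaling (0.0382) and with quantile normalization (0.0363). Quantile normalization also called Srsf5 higher (limma adjusted p = 0.0264). An equal total of nuclear genes called 9 of the 10 higher (90.0%, against 46.6% of all tested genes), but it left a median log2 fold change of 0.39 over all tested genes. Srsf5, the most abundant member over the 6 libraries, measured 271, 156 and 203 TPM in denervated replicates 1, 2 and 3, against 105, 92.6 and 90.6 TPM in control replicates 1, 2 and 3. The groups did not overlap as deposited (log2 fold change 1.09 ± 0.20, SE; limma adjusted p = 0.00109). They did overlap after scaling (0.19 ± 0.14, limma adjusted p = 0.353). Denervated replicate 1 stood highest for Srsf5. Srsf1, the founding member of the family, differed by -0.05 ± 0.08 after scaling (limma adjusted p = 0.682). The summed SR level was 341 ± 21.1 and 319 ± 7.98 scaled TPM in denervated and control muscle (SD, n = 3 each). Of the Srsf4 31-mers 41.0% occur in other genes, so reads of that gene may have been split.

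The hnRNPs, which coat nascent transcripts and often silence exons, were all called higher as deposited (18 of 18, against 69.9% of all tested genes). Their median log2 fold change was 1.00, against 0.71 over all tested genes. Of them 4 rose on both scales (22.2%, against 15.7% of all tested genes). Hnrnpr, an hnRNP known for binding axonal mRNAs in motor neurons, measured 24.9, 17.5 and 20.5 TPM in denervated replicates 1, 2 and 3, against 6.54, 9.5 and 6.49 TPM in control replicates 1, 2 and 3. Its groups did not overlap, with control replicate 2 nearest to the denervated values. The log2 fold change was 1.37 ± 0.19 as deposited (limma adjusted p = 3.12e-04) and 0.54 ± 0.13 after scaling (limma adjusted p = 0.0165). Hnrnpab, a regulator of mRNA transport and splicing, measured 107, 87.7 and 80.1 TPM in denervated muscle, against 36.4, 43.9 and 35.7 TPM in control muscle (log2 fold change 1.22, limma adjusted p = 2.20e-04; scaled 0.33, limma adjusted p = 0.0193). Of its 31-mers 28.1% occur in other genes, chiefly in Phykpl, so part of its signal is uncertain. Hnrnpu, a nuclear scaffold protein that binds RNA and chromatin, measured 89.5, 70.7 and 72.8 TPM in denervated muscle, against 32.9, 34.2 and 34.2 TPM in control muscle (log2 fold change 1.17, limma adjusted p = 1.62e-04; scaled 0.29, limma adjusted p = 0.0317). In both genes every denervated value lay above every control value. Hnrnpc, which binds uridine tracts and keeps cryptic exons out of mRNA, was named after its values were seen (log2 fold change 1.12, limma adjusted p = 2.04e-04; scaled 0.28, limma adjusted p = 0.0459).

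These 4 hnRNP calls were not stable. Hnrnpc lost its scaled call in each of the 9 fits that left out a library or a mouse (limma adjusted p up to 0.174). Hnrnpu lost it in all but the fit without control replicate 3 (up to 0.169). Hnrnpr and Hnrnpab lost it without denervated replicate 1, without control replicate 1 or 3, and without mouse 1 or 3. Hnrnpr also lost it without denervated replicate 3 and Hnrnpab without denervated replicate 2 (up to 0.149 and 0.146, limma adjusted p). Hnrnpd, the AU-rich element binding protein AUF1, was not called after scaling (limma adjusted p = 0.0546) but was with the mouse as a block (0.0405) and without control replicate 3 (0.0415), whereas Hnrnpc was not called with the block (limma adjusted p = 0.0663).

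Hnrnpa2b1, an abundant hnRNP that binds UAG-rich RNA, stood apart from the rest of its family. It measured 229.8, 179.8 and 187 TPM in denervated replicates 1, 2 and 3, against 135, 135 and 129 TPM in control replicates 1, 2 and 3. The denervated values were all above the control values, by a log2 fold change of 0.57 ± 0.14 (limma adjusted p = 0.00555), the smallest difference among the 18 hnRNPs. After scaling the order turned, to 144, 141 and 147 scaled TPM in denervated muscle, against 186, 171 and 186 scaled TPM in control muscle (scaled log2 fold change -0.33 ± 0.08, limma adjusted p = 0.0157). With quantile normalization the value was 0.04 and with an equal total of nuclear genes 0.16, so the sign after scaling depended on the scaling method. The scaled call also ended without denervated replicate 1 (limma adjusted p = 0.0533), denervated replicate 2 (0.0573), control replicate 3 (0.0515), mouse 1 (0.121) or mouse 3 (0.125). Its share in the summed hnRNP level needs no scaling. It was 20.6%, 21% and 22.2% in denervated libraries 1, 2 and 3, against 29.1%, 26.6% and 29.0% in control libraries 1, 2 and 3. The groups did not overlap, a difference of -6.94 percentage points at an exact permutation p of 0.10 (two-sided), the smallest that 3 against 3 libraries allow, and 0.21 after Benjamini-Hochberg adjustment over 38 shares computed. The other 13 hnRNPs were called higher as deposited and not called after scaling, with scaled log2 fold changes of 0.03 for Hnrnpa1 to 0.35 for Hnrnpf, and 66.2% of the 31-mers of Hnrnpf occur in other genes.

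The Sm and snRNP proteins form the protein part of the U1, U2, U4 and U5 particles. Of the 12, 9 were called higher as deposited (75.0%, against 69.9% of all tested genes). None rose on both scales, against 15.7% of all tested genes, and the gene labelled Snrpn fell (8.33%, against 4.50%). Snrpn encodes SmN, the form of the Sm core protein SmB that is best known from brain and heart, and it is an imprinted gene. The row carries the identifier ENSMUSG00000000948. GENCODE M21 names that identifier Gm38393, a locus on chromosome 7 at 59974149 to 60005064 (minus strand, GRCm38) that overlaps the gene it names Snrpn, with which it shares 9.54% of its 31-mers. How reads were divided between these annotations in the deposited values is not known, so the values are those of the row labelled Snrpn. It measured 11.2, 10.9 and 11.2 TPM in denervated replicates 1, 2 and 3, against 24.4, 22.6 and 20.8 TPM in control replicates 1, 2 and 3. Each denervated value was below each control value, with means of 11.1 ± 0.179 and 22.6 ± 1.80 TPM in denervated and control muscle (SD, n = 3 each). The log2 fold change was -0.96 ± 0.14 as deposited (limma adjusted p = 3.39e-04) and -1.80 ± 0.12 after scaling (limma adjusted p = 5.09e-05), lower in all 3 mice. Both calls held in each of the 9 fits that left out a library or a mouse, with a scaled limma adjusted p of at most 0.00316. The row ranked 57 of 71 by mean TPM in denervated muscle and 15 of 71 in control muscle.

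Snrpb, which encodes SmB itself, measured 24.9, 21.1 and 17.9 TPM in denervated replicates 1, 2 and 3, against 14.6, 17.4 and 13.5 TPM in control replicates 1, 2 and 3. Every denervated value was above every control value as deposited (log2 fold change 0.46, limma adjusted p = 0.0328), and every one below after scaling (-0.40, limma adjusted p = 0.0192). With an equal total of nuclear genes the value was 0.07 (limma adjusted p = 0.603), so the sign after scaling depended on the scaling method here too. The deposited call ended without denervated replicate 1 or 2, control replicate 1 or 3, or mouse 1 or 3 (limma adjusted p up to 0.171). The scaled call ended without denervated replicate 1 or 3 or mouse 1 or 3 (limma adjusted p up to 0.117). The ratio of Snrpb to the row labelled Snrpn within a library, a pair chosen after the values were seen, was 2.23, 1.94 and 1.59 in denervated libraries 1, 2 and 3, against 0.601, 0.770 and 0.652 in control libraries 1, 2 and 3. Snrpb was thus the more abundant of the pair in all 3 denervated libraries and the less abundant in all 3 control libraries.

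Of the other Sm and snRNP proteins, Snrpg, the smallest core Sm protein and the most abundant of the class, measured 132, 105 and 84.4 TPM in denervated replicates 1, 2 and 3, against 52.1, 60.4 and 41.8 TPM in control replicates 1, 2 and 3. The groups did not overlap as deposited (log2 fold change 1.04, limma adjusted p = 0.00142) and did after scaling (0.15, limma adjusted p = 0.427). The core Sm genes Snrpd1, Snrpd2, Snrpe and Snrpf were called higher as deposited alone, with scaled log2 fold changes of -0.04 to 0.26, but 92.1% of the 31-mers of Snrpf occur in other genes. Snrpd3 was called on neither scale (0.40, limma adjusted p = 0.0614; scaled -0.43, limma adjusted p = 0.0877). It was called lower after scaling without control replicate 2 or mouse 2 (limma adjusted p = 0.00800 and 0.0103), and higher as deposited without denervated replicate 3 (limma adjusted p = 0.0466). The U1 proteins Snrpa and Snrpc had scaled log2 fold changes of 0.12 and -0.13, and the deposited call of Snrpc ended without control replicate 3, mouse 1 or mouse 3 (limma adjusted p up to 0.0708). Of the U2 proteins, Snrpb2 was at 0.04 after scaling. Snrpa1, the partner of Snrpb2 in U2, measured 12.4, 9.37 and 7.39 TPM in denervated muscle, against 8.64, 7.40 and 6.56 TPM in control muscle. Its groups overlapped as deposited (0.31, limma adjusted p = 0.175) and not after scaling (-0.49, limma adjusted p = 0.0340), a call that ended in all but the fit without control replicate 2 (limma adjusted p up to 0.137).

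The SF3 complex is the part of the U2 particle that recognises the branch point. Of the 8 subunits with an Sf3a or Sf3b symbol here, which need not be the whole complex, 3 rose on both scales (37.5%, against 15.7% of all tested genes). Sf3b3, a scaffold subunit, measured 10.1, 8.32 and 9.42 TPM in denervated replicates 1, 2 and 3, against 3.08, 3.85 and 3.27 TPM in control replicates 1, 2 and 3 (log2 fold change 1.23, limma adjusted p = 2.09e-04; scaled 0.47 ± 0.11, limma adjusted p = 0.0140). Sf3a3 measured 22, 18.6 and 18.6 TPM in denervated muscle, against 8.05, 8.18 and 7.93 TPM in control muscle (1.19, limma adjusted p = 1.51e-04; scaled 0.36, limma adjusted p = 0.0177). Sf3b2 measured 28.2, 20.4 and 21.7 TPM in denervated muscle, against 9.95, 11.2 and 8.73 TPM in control muscle (1.15, limma adjusted p = 4.00e-04; scaled 0.31, limma adjusted p = 0.0380). For all 3 genes the groups did not overlap on either scale. Sf3b3 lost its scaled call without denervated replicate 3, mouse 1 or mouse 3 (limma adjusted p up to 0.114), and Sf3a3 without denervated replicate 2 or 3 or any mouse (up to 0.117). Sf3b2 lost it in all but the fit without control replicate 2 (up to 0.241), and with a term for the mouse (limma adjusted p = 0.0577).

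Sf3b1, the subunit that contacts the branch point itself and the most abundant of these subunits, measured 28.5, 23.1 and 22.3 TPM in denervated replicates 1, 2 and 3, against 12.4, 14.4 and 12.6 TPM in control replicates 1, 2 and 3. It was called higher as deposited (log2 fold change 0.85, limma adjusted p = 0.00101) and sat at the typical gene after scaling (0.00 ± 0.08, limma adjusted p = 0.992). Sf3a1 was the subunit with the widest spread, at 12.3, 8.16 and 7.99 TPM in denervated muscle, against 3.60, 11.1 and 3.60 TPM in control muscle. Control replicate 2 stood inside the denervated range and the other control libraries below it (log2 fold change 0.70 ± 0.35, limma adjusted p = 0.0966). Without control replicate 2 the deposited log2 fold change was 1.17 and was called (limma adjusted p = 0.00113), and without mouse 2 it was 1.25 (limma adjusted p = 8.52e-04). Sf3a2, Sf3b4 and Sf3b5 were called higher as deposited alone, with scaled log2 fold changes of 0.20, 0.26 and -0.02, and 51.2% of the 31-mers of Sf3b4 occur in other genes.

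The PRP factors, named after yeast mutants in pre-mRNA processing, were all called higher as deposited (13 of 13, against 69.9% of all tested genes). Of them 2 rose on both scales (15.4%, against 15.7% of all tested genes). Prpf19, a ubiquitin ligase and core of the complex that activates the spliceosome, measured 23.4, 18.6 and 16.9 TPM in denervated replicates 1, 2 and 3, against 7.97, 7.92 and 7.33 TPM in control replicates 1, 2 and 3 (log2 fold change 1.23, limma adjusted p = 2.27e-04; scaled 0.40 ± 0.09, limma adjusted p = 0.0136). Prpf38b, the most abundant of the class, measured 57.3, 49.6 and 46.1 TPM in denervated muscle, against 20.4, 23.5 and 18.4 TPM in control muscle (1.26, limma adjusted p = 1.62e-04; scaled 0.38 ± 0.09, limma adjusted p = 0.0127). Neither gene had overlapping groups on either scale. Prpf19 lost its scaled call without denervated replicate 1 or any mouse (limma adjusted p up to 0.0942), and Prpf38b without denervated replicate 2, mouse 1 or mouse 3 (up to 0.110). None of the 5 PRP proteins of the U4/U6.U5 particle was called after median-of-ratios scaling. Prpf3 was at 0.42 (limma adjusted p = 0.0693, but 0.0403 with the mouse as a block and 0.0366 without control replicate 2), Prpf6 at 0.31 (limma adjusted p = 0.0604), Prpf8, the central protein of the catalytic core, at 0.03, Prpf31 at 0.01 and Prpf4 at -0.30 (limma adjusted p = 0.119). With an equal total of nuclear genes, which called 46.6% of all tested genes higher, all 5 values were positive. They were 0.86, 0.76, 0.50, 0.46 and 0.13, and the first 4 were called higher. Prpf3 and Prpf6 were also called higher with upper-quartile scaling (limma adjusted p = 0.0450 and 0.0353). Prpf4 had the smallest deposited difference of the class (0.48, limma adjusted p = 0.0140), and that call ended without control replicate 2 or any mouse (limma adjusted p up to 0.0968). Without control replicate 2 it was called lower after scaling (limma adjusted p = 0.0459). Prpf40b lost its deposited call without mouse 3 (limma adjusted p = 0.121). Prpf18, Prpf38a, Prpf39 and Prpf4b had scaled log2 fold changes of -0.05 to 0.19, and none was called after scaling.

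**Figure D2:**
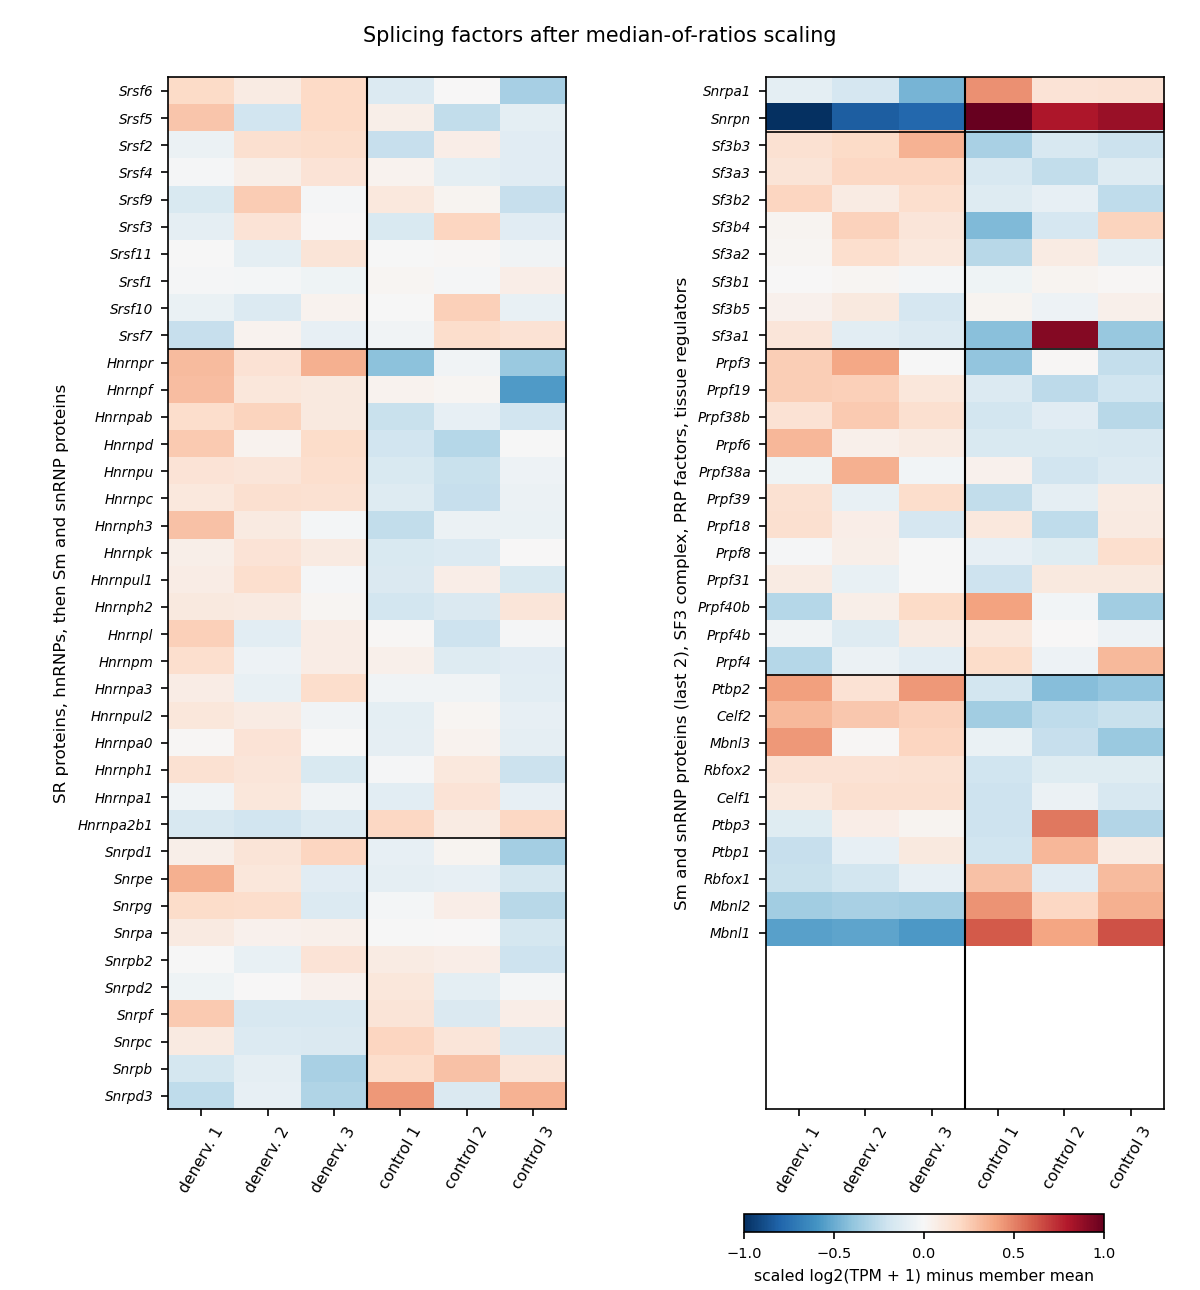
Scaled log2(TPM + 1) of the splicing factors in each library, minus the mean of the gene over the 6 libraries, with denervated libraries to the left and lines between the role classes. Most rows are pale, the row labelled Snrpn and the rows of Mbnl1 and Mbnl2 are blue in the 3 denervated libraries, and Sf3a1 is dark red in control replicate 2 alone.

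After median-of-ratios scaling, the log2 fold changes of the tissue-regulated splicing regulators had the widest range between quartiles of the role classes. It was 0.69, against 0.53 for the Sm and snRNP proteins, 0.30 over all 71 splicing factors and 0.60 over all tested genes. As deposited both classes had 0.55, and with quantile normalization the Sm and snRNP range was wider (0.58, against 0.55). After scaling 4 of 10 tissue regulators were called higher (40.0%, against 15.7% of all tested genes) and 2 lower (20%, against 18.6%). As deposited their summed level was 273 ± 33.1 TPM in denervated muscle and 185 ± 4.59 TPM in control muscle (SD, n = 3 each). After scaling it was 198 ± 3.59 and 251 ± 10.3 scaled TPM in denervated and control muscle, so the direction depended on the scaling.

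MBNL proteins bind YGCY motifs and promote adult exon choice in muscle. Mbnl1 (chromosome 3, 60472830 to 60629750, plus strand, GRCm38), the main muscle form, measured 51.4, 41.5 and 40.2 TPM in denervated replicates 1, 2 and 3, against 53.0, 49.6 and 51.7 TPM in control replicates 1, 2 and 3. Denervated replicate 1 lay within the control range and the other denervated libraries below it. The log2 fold change as deposited was -0.22 ± 0.14 (limma adjusted p = 0.191), and without denervated replicate 1 it was -0.32 and was called (limma adjusted p = 0.0261). After scaling the values were 32.2, 32.6 and 31.6 scaled TPM in denervated muscle, against 73.3, 62.8 and 74.2 scaled TPM in control muscle. These did not overlap, with a scaled log2 fold change of -1.10 ± 0.09 (limma adjusted p = 1.48e-04), and the scaled call held in each of the 9 leave-out fits (limma adjusted p at most 0.00796). Mbnl1 ranked 15 of 71 by mean TPM in denervated muscle and 4 of 71 in control muscle.

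Mbnl2, which shares many targets with Mbnl1, measured 52.2, 42.2 and 41.7 TPM in denervated replicates 1, 2 and 3, against 41.6, 38.3 and 37.4 TPM in control replicates 1, 2 and 3. Its denervated values all lay above its control values, by margins as small as that between 41.7 and 41.6 TPM (log2 fold change 0.20 ± 0.14, limma adjusted p = 0.220). After scaling they all lay below (-0.68 ± 0.09, limma adjusted p = 0.00118), and the call held in the 9 leave-out fits but not with an equal total of nuclear genes (-0.20, limma adjusted p = 0.156). Mbnl3, which is tied to undifferentiated myoblasts, was the least abundant of the 71, at 4.38, 2.27 and 2.81 TPM in denervated muscle, against 1.18, 1.07 and 0.792 TPM in control muscle. It was called higher as deposited (1.02 ± 0.21, limma adjusted p = 0.00204) and not after scaling (0.45 ± 0.15, limma adjusted p = 0.0616). Of the summed Mbnl level, Mbnl1 held 47.8% ± 0.437 in denervated and 56.2% ± 1.15 in control muscle (SD, n = 3 each). Mbnl2 held 48.9% ± 0.496 and 42.7% ± 0.952, and Mbnl3 held 3.34% ± 0.708 and 1.11% ± 0.195, in denervated and control muscle. For each the groups did not overlap, at an exact permutation p of 0.10, the smallest possible, and 0.21 after adjustment over 38 shares.

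CELF proteins bind GU-rich RNA and act against MBNL on several muscle exons. Celf2 (chromosome 2, 6539694 to 7509563, minus strand, GRCm38) measured 39.3, 30.0 and 29.3 TPM in denervated replicates 1, 2 and 3, against 11, 12.7 and 11.5 TPM in control replicates 1, 2 and 3. The groups were far apart, with a log2 fold change of 1.40 ± 0.16 as deposited (limma adjusted p = 1.22e-04) and 0.55 ± 0.08 after scaling (limma adjusted p = 0.00230), and a limma adjusted p of at most 0.0447 over the 9 leave-out fits. Celf1 measured 34.0, 28.2 and 28.1 TPM in denervated muscle, against 12.3, 14.9 and 12.2 TPM in control muscle. It rose as well (1.14 ± 0.15, limma adjusted p = 2.57e-04; scaled 0.28 ± 0.08, limma adjusted p = 0.0383). The scaled call of Celf1 ended in all but the fit without control replicate 2 (limma adjusted p up to 0.224) and with the mouse as a block (limma adjusted p = 0.0518). Celf2 held 52.1% ± 1.39 of the summed Celf1 and Celf2 level in denervated muscle and 47.3% ± 1.26 in control muscle (SD, n = 3 each; exact permutation p = 0.10, adjusted 0.21).

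RBFOX proteins bind UGCAUG and promote muscle and neuronal exons. Rbfox2, the form present in many tissues, measured 24.5, 19.5 and 19.6 TPM in denervated replicates 1, 2 and 3, against 8.58, 9.88 and 8.72 TPM in control replicates 1, 2 and 3. It rose (log2 fold change 1.14 ± 0.15, limma adjusted p = 2.62e-04; scaled 0.30 ± 0.08, limma adjusted p = 0.0272), although the scaled call ended in all but the fit without control replicate 2 (limma adjusted p up to 0.176). Rbfox1, the form enriched in muscle and brain, measured 60.2, 48.9 and 52.9 TPM in denervated muscle, against 39.1, 31.9 and 38.3 TPM in control muscle. It was called higher as deposited (0.55 ± 0.15, limma adjusted p = 0.00763) and stood at -0.33 ± 0.13 after scaling (limma adjusted p = 0.0973). Without control replicate 2, its lowest control library, it was called lower after scaling (-0.47, limma adjusted p = 0.00811), as it was without mouse 2 (-0.46, limma adjusted p = 0.0254). Rbfox2 held 28.2% ± 0.996 of the summed level of the pair in denervated muscle and 20.1% ± 3.11 in control muscle (SD, n = 3 each). The difference was 8.11 percentage points (exact permutation p = 0.10, adjusted 0.21).

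PTB proteins bind pyrimidine tracts and silence exons, Ptbp1 in most cells and Ptbp2 chiefly in neurons. Ptbp2 measured 8.24, 5.23 and 6.67 TPM in denervated replicates 1, 2 and 3, against 2.22, 1.94 and 1.77 TPM in control replicates 1, 2 and 3. It rose without overlap of the groups, by a log2 fold change of 1.36 ± 0.18 (limma adjusted p = 2.73e-04), and of 0.66 ± 0.13 after scaling (limma adjusted p = 0.00766), the largest scaled rise of the 71. The scaled call ended without mouse 1 or mouse 3 (limma adjusted p up to 0.0903). Ptbp1 measured 20.2, 18 and 20.6 TPM in denervated muscle, against 9.41, 15.2 and 11.2 TPM in control muscle (0.70, limma adjusted p = 0.00683; scaled -0.15, limma adjusted p = 0.519), and 27.5% of its 31-mers occur in other genes. Ptbp3 measured 16.9, 15.6 and 15.1 TPM in denervated muscle, against 7.17, 13.6 and 6.49 TPM in control muscle (0.81, limma adjusted p = 0.0126; scaled -0.02, limma adjusted p = 0.956). Control replicate 2 stood high among the controls in both genes. Without mouse 1 the deposited calls of both ended, at a limma adjusted p of 0.0582 for Ptbp1 and 0.138 for Ptbp3, and that of Ptbp3 also ended without denervated replicate 1 (limma adjusted p = 0.0577).

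**Figure D3:**
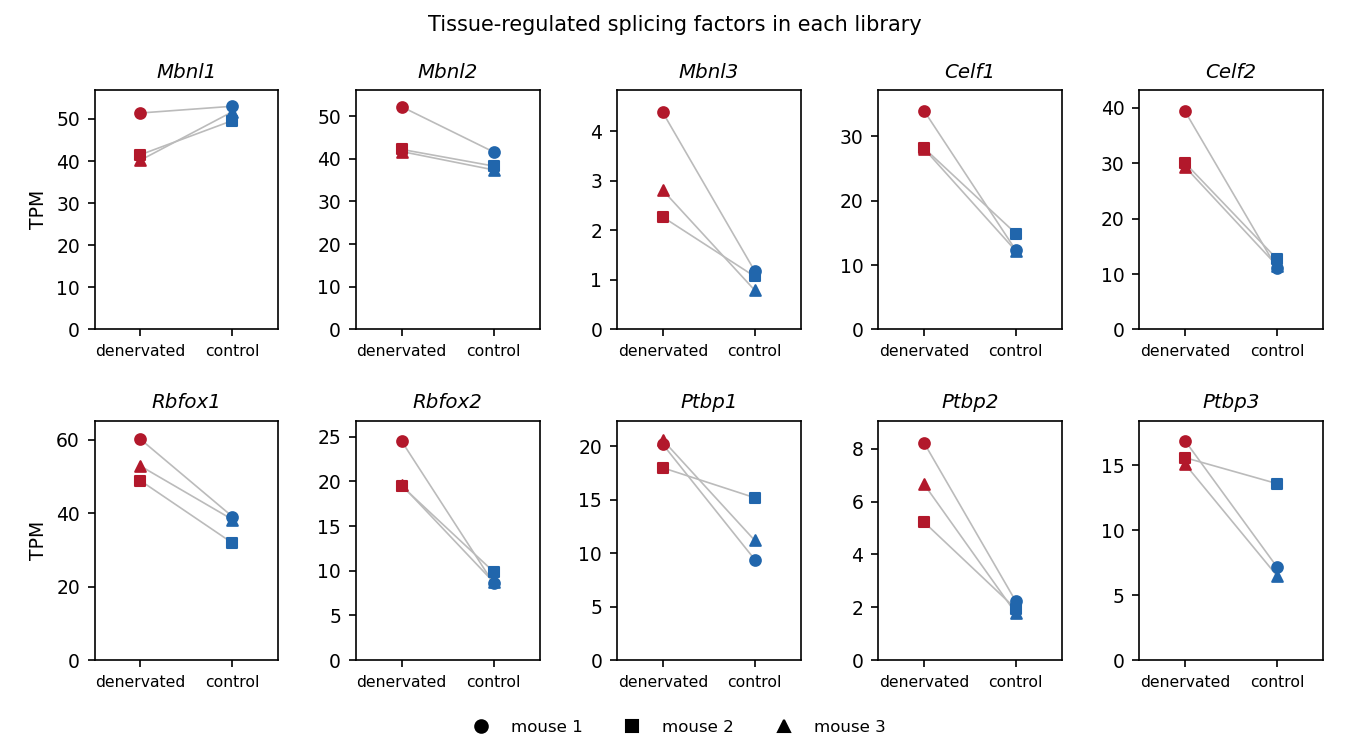
TPM of the 10 tissue-regulated splicing regulators in each library, denervated to the left, with a grey line joining the muscles of a mouse. Celf1, Celf2, Rbfox2 and Ptbp2 are higher in the denervated muscle of every mouse with a wide gap, Mbnl1 is lower in every mouse, and the Mbnl2 groups nearly touch.

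**Figure D4:**
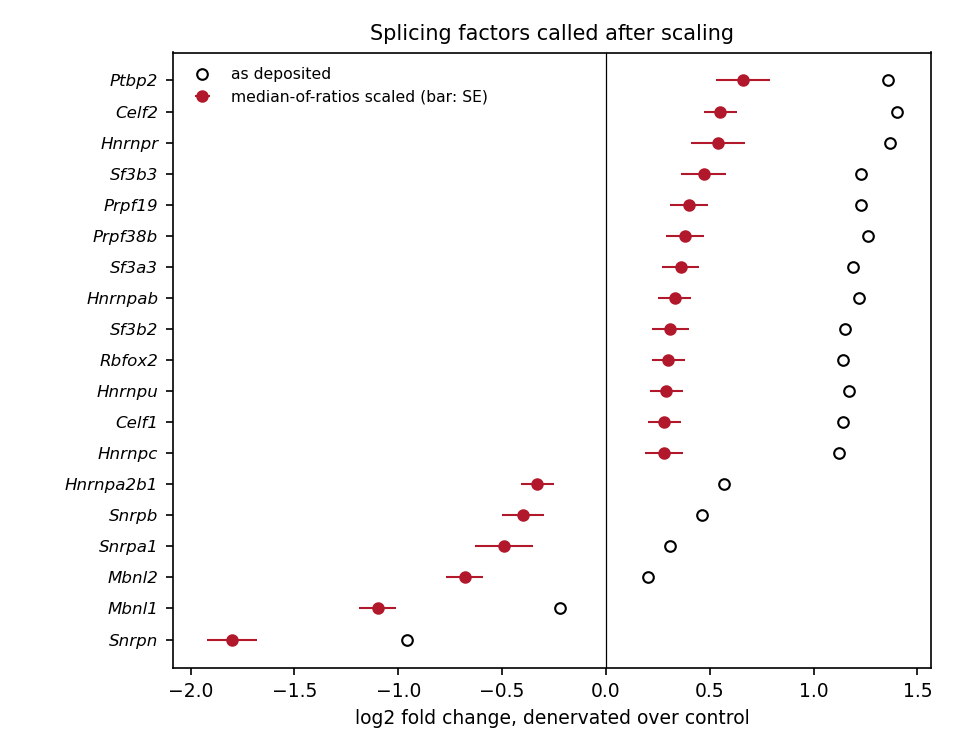
Log2 fold change, denervated over control, of the 19 splicing factors called after median-of-ratios scaling (filled, with SE) and of the same genes as deposited (open). The open points of 13 genes lie between 1.12 and 1.40, and those of the 6 genes called lower after scaling lie between -0.96 and 0.57.

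Ratios between members within a library do not depend on scaling, and the pairs below were chosen after their values were seen, so they are given without a test. Celf1 over Mbnl1 was 0.661, 0.678 and 0.700 in denervated libraries 1, 2 and 3, against 0.231, 0.301 and 0.236 in control libraries 1, 2 and 3. Celf2 over Mbnl1 was 0.765, 0.722 and 0.729 in denervated libraries, against 0.207, 0.257 and 0.222 in control libraries. Rbfox2 over Rbfox1 was 0.408, 0.398 and 0.371 in denervated libraries, against 0.219, 0.309 and 0.228 in control libraries. In all 3 ratios each denervated library lay above each control library, and control replicate 2 was the highest control. A ratio shows unequal change and does not say which of the genes moved. The ratio of Hnrnpa1 to Srsf1, factors known to oppose each other in the choice of splice sites, overlapped between the groups, at 1.5, 1.69 and 1.54 in denervated libraries, against 1.40, 1.70 and 1.38 in control libraries.

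**Figure D5:**
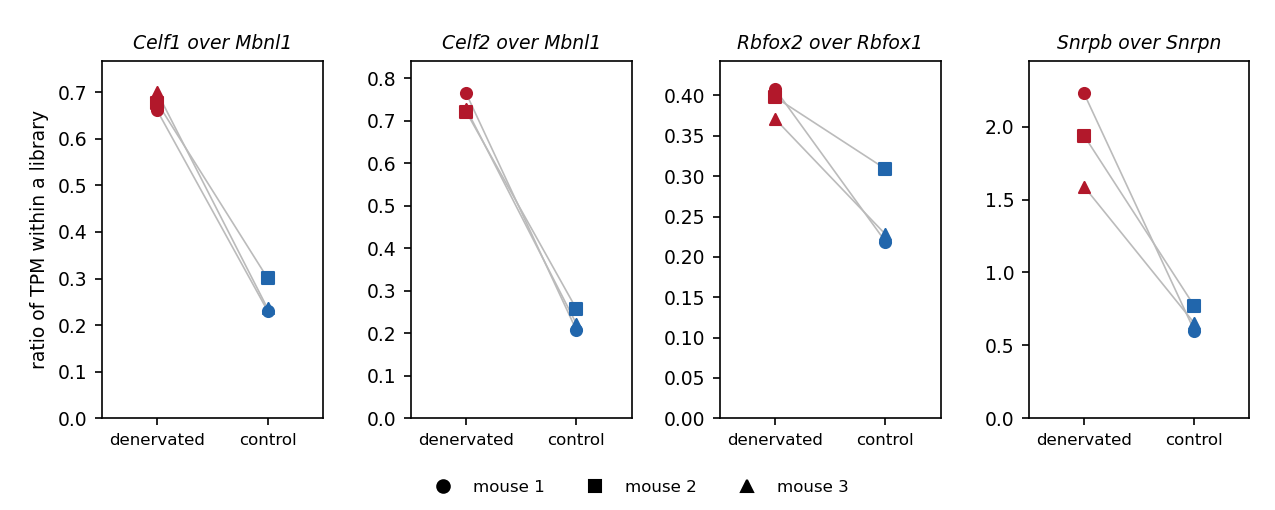
Ratio of TPM between pairs of splicing factors within each library, denervated to the left, with a grey line joining the muscles of a mouse. In all 4 panels every denervated library lies above every control library, as with Celf1 over Mbnl1 at 0.661 to 0.700 in denervated and 0.231 to 0.301 in control muscle.

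Other genes of the splicing pathway came from a list of 99 written from background knowledge. Of the 93 measured, 91 were tested, and 14 rose (15.4%, against 15.7% of all tested genes) and 1 fell (1.10%, against 4.50%) on both scales. The largest rises were those of Lsm6, part of the Lsm ring of U6, at 211, 110.0 and 142 TPM in denervated replicates 1, 2 and 3, against 44.7, 35.3 and 32.0 TPM in control replicates 1, 2 and 3 (log2 fold change 1.98, scaled 1.09, limma adjusted p = 0.00371), and of the cold-induced RNA-binding protein Rbm3 (1.86, scaled 0.98, limma adjusted p = 0.0125). The poly(C)-binding protein Pcbp1 followed (1.51, scaled 0.64, limma adjusted p = 0.00345). Each of these groups lay apart without overlap, but the scaled calls of Lsm6 and Pcbp1 ended without mouse 3 (limma adjusted p = 0.0533 and 0.0556), and that of Rbm3 without mouse 1 or 3 (0.0585 and 0.0901). The gene that fell was Khdrbs3, a STAR-family splicing regulator, at 2.08, 2.23 and 1.31 TPM in denervated muscle, against 4.74, 3.58 and 3.65 TPM in control muscle (-0.80, limma adjusted p = 0.00405; scaled -1.45, limma adjusted p = 6.64e-04).

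On that list Rbm24, Rbm20, Srpk3, Qk and Clk1 did not rise or fall on both scales. Rbm24, which promotes muscle exons, and Rbm20, the regulator of titin splicing, were called higher as deposited (log2 fold changes 1.01 and 0.84) and stood at 0.14 and -0.03 after scaling (limma adjusted p = 0.257 and 0.918). The muscle SR protein kinase Srpk3 stood at 1.34 and, after scaling, 0.49 (limma adjusted p = 0.0669), and it was called higher after scaling without denervated replicate 3 or mouse 3 (limma adjusted p = 0.0358 and 0.0330). Qk, quaking, was at 0.63 and -0.26 (scaled limma adjusted p = 0.0839, but called lower without control replicate 2 or mouse 2, at 0.0134 and 0.0368). The SR protein kinase Clk1 was at 0.85 and -0.01, and its deposited call ended without mouse 1 (limma adjusted p = 0.0626). Rbm38, the most abundant on the list, measured 104, 82.3 and 93.1 TPM in denervated muscle, against 98.8, 97.7 and 110.1 TPM in control muscle. Its groups overlapped as deposited (-0.14, limma adjusted p = 0.390), and it was called lower after scaling (-1.03, limma adjusted p = 4.86e-04), as Mbnl1 was.

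Markers of some cell types differed between the same libraries, and their part in the values above was not tested. Skeletal muscle markers (7 of 7 tested) summed to 18653 to 24939.8 TPM in denervated and 28452 to 34407 TPM in control libraries, with 5 called lower and 2 higher as deposited and 5 lower after scaling. Satellite cell markers (4 of 5 tested) summed to 56.7 to 75.7 TPM in denervated and 17.7 to 21.1 TPM in control libraries, with 4 called higher as deposited and 3 after scaling. Adipocyte markers (4 of 4) summed to 85.5 to 159 TPM in denervated and 11.1 to 35.1 TPM in control libraries, with 4 and 3 called higher. Of 6 Schwann cell markers 4 were measured, and these summed to 41.2 to 59.8 TPM in denervated and 69.9 to 157 TPM in control libraries. Of the 3 that were tested, 2 were called lower as deposited and 3 after scaling. Endothelial markers had 5 of 6 called lower after scaling and none as deposited, whereas 5 of 6 macrophage and 3 of 6 fibroblast markers were called higher as deposited and none after scaling. Over all tested genes 69.9% were called higher and 4.50% lower as deposited, and 15.7% higher and 18.6% lower after scaling. Counts of markers called higher as deposited therefore do not by themselves set a cell type apart. The macrophage sums overlapped between the groups, at 121 to 179 TPM in denervated and 62.3 to 142 TPM in control libraries. So did the fibroblast sums, at 935 to 1938 and 526 to 1388 TPM. No marker of these types that the table lists was at 0 in any library. Of 3 proliferation markers tested none was called on either scale. The 2 erythroid markers tested were called lower after scaling alone, and the 1 T cell marker tested was called higher as deposited alone.

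Of the 71, 62 had an adjusted p under 0.05 in the authors' deposited table (87.3%, against 62.5% of all genes listed). That table gives the row labelled Snrpn a log2 fold of -0.96 (adjusted p = 0.00138), Mbnl1 -0.22 (adjusted p = 0.217) and Celf2 1.40 (adjusted p = 0.00200). None of the 71 was among the 336 higher and 21 lower genes that the authors' deposited lists hold, whose smallest absolute log2 fold changes were 2.00 and 2.06.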

How the data were processed

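Total RNA of 6 whole biceps muscles was amplified, made into libraries and sequenced, per the labels' protocols. The authors used kallisto 0.42.1 and mm10, per the submitters' processing notes. They deposited log2 values for 13105 genes, read here as log2(TPM + 1) because no header names the unit, a log2 fold and raw and adjusted p-values from a test that the file headers do not name. How transcripts were summed to genes is not stated. Depth is unknown, so precision rests on 3 libraries per group.

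Genes with at least 1 TPM in at least 3 of 6 libraries (12268) entered lmFit and eBayes (trend on, group as factor, pseudocount 1) of limma 3.58.1 under R 4.3.3, with p-values adjusted by Benjamini-Hochberg over all of them, as deposited and after median-of-ratios scaling of TPM. The fit was tested on simulated data. Shares were compared by exact permutation. Shared 31-mers and coordinates come from GENCODE M21, promoter windows from RefSeq (GRCm38.p6), and no protein sequence was used. Not every member is named with its own values, and 1 member, which is included in the counts, is not reported here.

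Genes were named by class: up to 3 largest rises and falls on both scales, the most abundant, and all tissue regulators. Rbm20, Rbm24, Srpk3, Qk and Clk1 of the further list were named in any case. Members, lists and tests were chosen with earlier results of these data known. Both muscles of a mouse carry 1 number in the labels, which gives the pairing. After the group mean was taken off, the muscles of mice 1, 2 and 3 correlated across genes at 0.312, 0.183 and 0.411. Alternatives were other scalings, filters, pseudocount, variance model, a mouse block, and leaving out libraries or mice.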

Additional observations from a re-analysis of the deposited data

How the results depend on the processing

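Depth is unknown and 3 muscles per group limit what can be called. The choice of scaling decided most counts. With quantile normalization 20 members were called higher (28.2%, against 17.7% of all tested genes) and with upper-quartile scaling 18 (25.4%, against 18.9%), where median-of-ratios scaling called 13 (18.3%, against 15.7%). An equal total of nuclear genes left a median log2 fold change of 0.39 over all genes. It called 55 members higher and 2 lower (77.5% and 2.82%), where median-of-ratios scaling called 13 and 6. Over all tested genes the nuclear total gave 5719 higher and 1067 lower (46.6% and 8.70%). Over the other splicing genes it gave 62 and 3 (68.1% and 3.30%), where quantile normalization gave 24 higher (26.4%). A mean of at least 5 TPM, which tests fewer genes, gave 5047 higher genes as deposited, and 0 lower as deposited and 7 lower after scaling among the other splicing genes. The number tested with that filter is not given, so these counts carry no share. Khdrbs3, the other splicing gene that fell, was under 5 TPM in every library, so this filter left it out and did not test its call.

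Leaving out 1 library or 1 mouse gave 60 to 66 members higher and 1 to 2 lower as deposited, and 1 to 13 higher and 3 to 9 lower after scaling. Over all tested genes it gave 6459 to 8496 and 436 to 623 as deposited and 938 to 1825 and 1322 to 2277 after scaling, and over the other splicing genes 72 to 79 and 1 to 1, then 4 to 15 and 3 to 14. The shares kept their sign, as Mbnl1 at -8.83 to -7.75 percentage points.

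With the mouse as a replicate block, 65 members were higher as deposited (91.5%, against 72.1% of all tested genes) and 1 lower (1.41%, against 4.96%). After scaling 12 were higher (16.9%, against 16.2%) and 6 lower (8.45%, against 19.1%). Calls lost were those of Hnrnpc, Sf3b2 and Celf1 (limma adjusted p = 0.0663, 0.0577 and 0.0518) and calls gained those of Hnrnpd and Prpf3. No other member changed its call, and the share differences kept their size, at an exact sign-flip p of 0.25, the smallest that 3 pairs allow.

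Of 1017 alternative values of the named genes, 886 kept direction and side of the threshold, 80 lost a call, 19 gained one and 32 changed sign, all after scaling, and the cause was not tested. Of the members called after scaling, Hnrnpa2b1 came to 0.04 with quantile normalization and 0.16 with the nuclear total, and Snrpb to 0.07 with the nuclear total. The nuclear total also gave 0.44 for Ptbp3, 0.32 for Ptbp1, 0.16 for Rbfox1, 0.45 for Rbm20, 0.22 for Qk and 0.46 for Clk1. Sf3b1 came to -0.01 and -0.02. Leaving out a library or mouse put Ptbp3 at -0.19 to 0.24 (0.04 without denervated replicate 1, 0.20 without mouse 2), Rbm20 at -0.20 to 0.13 (0.01, 0.02 and 0.06 among them) and Clk1 at -0.15 to 0.21 (0.10 without denervated or control replicate 2). The 5 TPM filter gave 0.02, 0.01 and 0.03 for these 3 genes, upper-quartile scaling 0.04, 0.04 and 0.05, and quantile normalization 0.04, 0.10 and 0.12.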
